A study of Danio rerio with 20 samples.

Results

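Dimethylformamide (DMF) at both of its tested concentrations was compared with the negative control in pools of whole zebrafish embryos, sampled at 48 h post fertilisation. The members were the 11 RNA pools of these 3 groups that could be used, of 20 pools in the series, and their groups were taken from the labels. DMF25 was DMF at 0.025 ml/L, with 3 pools (replicates 1, 3 and 4). DMF100 was DMF at 0.1 ml/L, with 4 pools (replicates 1 to 4). CONTROL was the negative control, for which the labels give no solvent and no concentration, with 4 pools (replicates 1 to 4). The series also held dimethyl sulfoxide (DMSO) at 0.025 ml/L (DMSO25) and at 0.1 ml/L (DMSO100), with 4 and 3 usable pools. No strain name or genotype was given in the labels for any group, and 1 breeding stock was described for all embryos. Each pool was made from the surviving embryos of 1 plate, which had started with 20 exposed embryos, so a replicate was a plate and not an embryo.

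DMF and DMSO are polar solvents that are used in fish toxicity tests to bring poorly soluble chemicals into water, and such tests ask what the carrier does on its own. In mammals DMF is broken down in the liver by a cytochrome P450 enzyme, and high exposure harms that organ. At the stage sampled, the zebrafish embryo has a patterned brain, a beating heart and cartilage precursors in the jaw. Many of its transcription factor genes are expressed in small groups of cells. In RNA from whole embryos, fewer cells of a type and less RNA per cell cannot be told apart.

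Each of 20 arrays carried 2 pools, 1 labelled with Cy3 and 1 with Cy5, and each pair of pools was hybridised 2 times with the dyes exchanged. The pair of DMF25 replicate 2 and DMSO100 replicate 1 was left out. The file of 1 of its arrays named the scan of an array of DMF100 replicate 1 and CONTROL replicate 3, and the raw log2 ratios of those 2 arrays correlated at 0.88, against at most 0.60 in the other 189 array pairs. This left 18 arrays in 9 pairs. Every pool was in 1 pair, so each ratio between 2 pools shared no RNA with any other ratio. In 2 of the pairs a DMF pool lay directly against a CONTROL pool, and in the remaining 7 the link between DMF and CONTROL ran through another group or through other pools of the same groups. Of 16407 probes, 3652 (22.3%) had a ratio in at least 8 pairs and were tested. Only 47 spots (0.284%) carried an identifier that matched a gene symbol, and 14 of these genes were tested. No marker gene of muscle, red blood cells, lens, neurons, yolk or epidermis was on the array under a symbol, so the labelled tissue could not be checked against markers.

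No probe passed the test in the mean of both DMF groups minus CONTROL: 0 of 3652 probes (0%) had a Benjamini-Hochberg adjusted p under 0.05 in limma, and the smallest adjusted p was 0.993. At an unadjusted p under 0.05, 43 probes (1.18%) were higher with DMF and 98 (2.68%) were lower. Together these were 141 probes, against 182.6 that this threshold would give over 3652 probes with no difference. The median difference was -0.01 on the log2 scale, and the 5th and 95th percentiles were -0.37 and 0.30. On that scale 1 probe was over 1 and 2 probes were under -1. Leaving out each pair in turn gave 0 calls except without DMF100 replicate 1 and CONTROL replicate 3, where 1 probe passed.

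The precision of this comparison can be read from the intervals. The median standard error was 0.187 and the median half-width of the 95% confidence interval was 0.40, both on the log2 scale. The whole interval lay between -1 and 1 for 3545 probes (97.1%). It lay between -0.5 and 0.5 for 1335 probes (36.6%). A change of 1 in the measured log2 ratio was therefore outside the interval of nearly every tested probe. A change of 0.5, in at least 1 direction, was inside it for most. No background was subtracted, and how far measured ratios follow the RNA was not tested. The tested probes were the brighter ones, with a median log2 amplitude of 10.2 against 7.9 in the probes not tested.

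At the lower concentration, DMF25 minus CONTROL, 0 of 3652 probes (0%) passed in limma and the smallest adjusted p was 0.423. At an unadjusted p under 0.05, 78 probes (2.14%) were higher and 153 (4.19%) were lower, 231 in all, against 182.6 with no difference. Without the pair of DMF100 replicate 1 and CONTROL replicate 3, 1 probe passed, and it was lower with DMF25. At the higher concentration, DMF100 minus CONTROL, 0 of 3652 probes (0%) passed and the smallest adjusted p was 0.999. Here 4 probes (0.110%) were higher and 33 (0.904%) were lower at an unadjusted p under 0.05. These were 37 in all, fewer than the 182.6 with no difference. The differences at the lower concentration spread more widely, with 2 probes over 1 and 13 under -1, than those at the higher concentration, where none reached 1 in either direction. The median standard error was also larger, 0.228 for DMF25 and 0.209 for DMF100. DMF25 put a weight of 0.467 on its direct pair with CONTROL, whose ratios had an SD of 0.397 over tested probes. DMF100 put 0.4 on its own direct pair, with an SD of 0.245. The part of these in the wider spread was not tested. The comparisons of both concentrations share their CONTROL pools and were not independent.

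The step between the concentrations was tested directly as DMF100 minus DMF25. In this contrast 0 of 3652 probes (0%) passed in limma, with a smallest adjusted p of 0.997. At an unadjusted p under 0.05, 73 probes (2.00%) were higher in DMF100 and 29 (0.794%) were lower, 102 in all, against 182.6 with no difference. The median half-width of the 95% interval was 0.49, so steps smaller than this in most probes were not resolved.

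**Figure D1:**
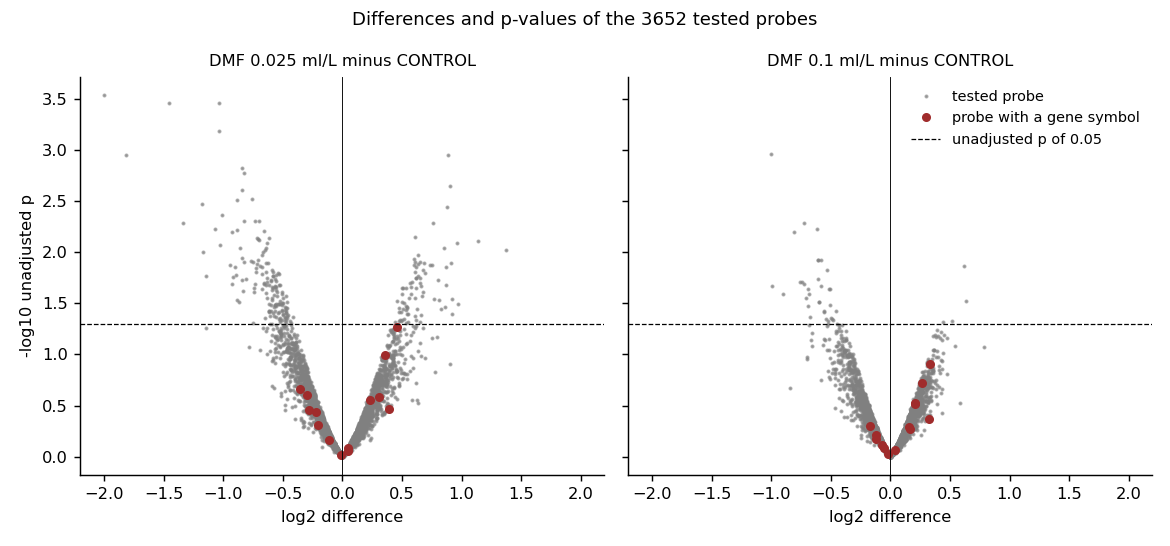
Each point is 1 of the 3652 tested probes, with its log2 difference from CONTROL on the x axis and the -log10 of its unadjusted limma p on the y axis, for DMF 0.025 ml/L on the left and DMF 0.1 ml/L on the right. Red points are the 14 probes with a gene symbol and the dashed line is an unadjusted p of 0.05. Points spread further at the lower concentration, down to -2.0, than at the higher, where the lowest is -1.0, and no probe passed after adjustment in either panel. The panels also differ in precision, with a median standard error of 0.228 on the left and 0.209 on the right.

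None of the 14 tested genes with a symbol passed in any of these contrasts (adjusted p 0.993 to 0.995 in limma for the mean of both DMF groups). Of the 14, 8 had a mean DMF difference above 0 and 6 below 0, with a median of 0.03, beside -0.01 over all tested probes. The differences ran from -0.19 to 0.39. The 95% interval lay between -1 and 1 for 13 of the 14 genes, with dlx5a as the exception, and held 0 for 13 of them, with hmx3a as the exception.

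**Figure D2:**
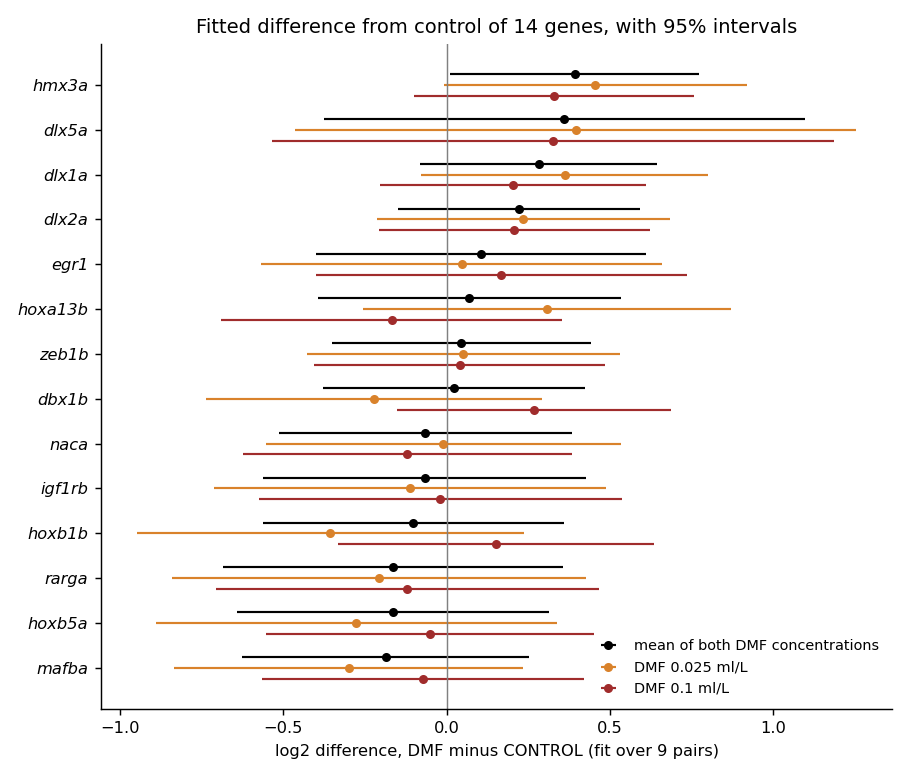
Log2 difference from CONTROL of the 14 tested genes, ordered by the mean of both DMF groups, as fitted over 9 pairs. Points are estimates and bars are 95% intervals: black for the mean of both concentrations, orange for DMF 0.025 ml/L and red for DMF 0.1 ml/L. The interval of hmx3a for the mean lies above 0, from 0.01 to 0.77, and every other bar crosses 0.

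The dlx genes encode homeobox transcription factors that act in forebrain interneurons and in the cartilage precursors of the jaw. Of 8 dlx genes on the array under a symbol, 3 were tested. All 3 had a mean DMF difference above 0 and none passed. Their median was 0.28, beside -0.01 over all probes, of which 1752 of 3652 were above 0.

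For dlx1a (NM_131305), the pair ratio of DMF over CONTROL was 0.58 in DMF25 replicate 1 over CONTROL replicate 2 and 0.02 in DMF100 replicate 1 over CONTROL replicate 3. In the pairs with DMSO, dlx1a was 0.52 in DMF25 replicate 4 over DMSO25 replicate 3, 0.16 in DMF100 replicate 4 over DMSO25 replicate 4, and 0.17 in DMF100 replicate 3 over DMSO100 replicate 4. The DMF pool was thus the higher one in 5 of 5 pairs that set DMF against another group, with both values past 0.5 coming from DMF25 pools. How many of all tested probes had 1 sign in these 5 pairs is not given, so the count cannot be read as particular to dlx1a. The pairs without DMF gave 0.08 for DMSO25 replicate 1 over CONTROL replicate 1, -0.17 for DMSO100 replicate 3 over CONTROL replicate 4, and 0.18 for DMSO100 replicate 2 over DMSO25 replicate 2. The fitted mean DMF difference of dlx1a was 0.28 ± 0.17 (SE), or 1.22-fold, with a 95% interval of -0.08 to 0.64 and an unadjusted p of 0.117 (adjusted p 0.993, limma). By concentration it was 0.36 in DMF25 and 0.20 in DMF100, a step of -0.16 with a 95% interval of -0.60 to 0.28. In DMF100 replicate 2 over DMF25 replicate 3, dlx1a was 0.16, with DMF100 the higher. Both DMF25 ratios past 0.5 came from the second scan batch. Fitted within scan batches, the mean DMF difference of dlx1a was 0.33 in the second and -0.06 in the last.

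For dlx2a (NM_131311), the ratios in the direct pairs were 0.09 for DMF25 and 0.17 for DMF100 over CONTROL. Against DMSO pools dlx2a was 0.18, -0.08 and 0.02 in the pairs of DMF25 replicate 4, DMF100 replicate 4 and DMF100 replicate 3. These 5 ratios lay close together and near 0. The ratio of DMSO25 replicate 1 over CONTROL replicate 1, which enters the DMF estimate through the DMSO25 group, was 0.70. Fitted over all pairs, the mean DMF difference of dlx2a was 0.22 ± 0.17 (SE), with a 95% interval of -0.15 to 0.59, and it was 0.09 without that pair.

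For dlx5a (NM_131306), the direct pairs were -0.31 for DMF25 and 0.36 for DMF100 over CONTROL, in opposite directions. Its pair ratio of -0.31 was the mean of 1.59 on the array with DMF25 in Cy5 and -2.21 on the array with DMF25 in Cy3. The other DMF pairs gave 1.59 for DMF25 replicate 4 over DMSO25 replicate 3, -0.44 for DMF100 replicate 3 over DMSO100 replicate 4 and -0.24 for DMF100 replicate 2 over DMF25 replicate 3. The spots of dlx5a in the DMF25 pairs with CONTROL and DMSO25 had the lowest confidence grade that was kept. The fitted mean DMF difference of 0.36 ± 0.34 (SE) had the widest interval of the 14 genes, -0.38 to 1.1. It was 0.80 without the pair of DMF25 and CONTROL and -0.03 without that of DMSO25 replicate 1 and CONTROL replicate 1.

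The next group holds genes of the hindbrain, spinal cord and ear. Of 4 members of that list on the array under a symbol, 3 were tested, 2 of these had a mean DMF difference above 0 and none passed, with a median of 0.02 beside -0.01 over all probes. The gene hmx3a (NM_131634) encodes a homeobox factor of the inner ear and lateral line. It was 0.47 in DMF25 replicate 1 over CONTROL replicate 2 and 0.06 in DMF100 replicate 1 over CONTROL replicate 3. Against DMSO pools hmx3a was 0.55 for DMF25 replicate 4, 0.17 for DMF100 replicate 4 and 0.04 for DMF100 replicate 3.

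For hmx3a the DMF pool was the higher one in 5 of 5 pairs, a count that, as for dlx1a, has no share of all tested probes beside it. Both DMF25 ratios of hmx3a were near 0.5 and all 3 DMF100 ratios were under 0.2. The pairs of DMF25 and of DMF100 replicate 4 were in the second scan batch, those of DMF100 replicates 1 and 3 in the last. Concentration and batch were thus partly mixed in these ratios. DMF100 replicate 2 over DMF25 replicate 3 gave hmx3a 0.04. The fitted step, DMF100 minus DMF25, was -0.13, with a 95% interval of -0.59 to 0.34. The solvent DMSO gave hmx3a ratios over CONTROL of the same order, 0.42 for DMSO25 replicate 1 and 0.38 for DMSO100 replicate 3. Its largest ratio, 0.72, was in DMSO100 replicate 2 over DMSO25 replicate 2, a pair without DMF. In all 9 pairs the pool named first was the higher one for hmx3a, whether or not it held DMF. On single arrays, hmx3a was above 0 on 6 of 6 arrays with the DMF pool in Cy5 and below 0 on 4 of 6 arrays with it in Cy3. These counts take in the pair of both DMF groups, in which DMF100 was counted as the DMF pool. Each pair ratio averages both orientations. A fit on single arrays with a dye coefficient gave hmx3a the same value, 0.39. It had to, because both arrays of every pair had a usable hmx3a spot, so this is no separate check. The gene dlx1a had the same counts by dye, above 0 on 6 of 6 arrays and below 0 on 4 of 6. The fitted mean DMF difference of hmx3a was 0.39 ± 0.18 (SE), or 1.31-fold, with a 95% interval of 0.01 to 0.77. It was the 129th smallest p of 3652, with an unadjusted p of 0.0448 and an adjusted p of 0.993 in limma. Fitted within scan batches it was 0.42 in the second and 0.04 in the last.

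The gene mafba (NM_131015) encodes a leucine zipper factor needed for hindbrain segmentation. Its ratio was -0.85 in DMF25 over CONTROL, the lowest of the 14 genes in that pair, and -0.02 in DMF100 over CONTROL. Its other 4 ratios with DMF ran from -0.29 to 0.13. For mafba the fitted mean DMF difference was -0.19 ± 0.20 (SE), with a 95% interval of -0.63 to 0.25, and it was 0.16 without the pair of DMF25 and CONTROL. The direction of the mafba estimate thus rested on that pair.

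The gene dbx1b (NM_131178) encodes a homeobox factor of interneuron progenitors in the neural tube. It was -0.48 in DMF25 over CONTROL and 0.24 in DMF100 over CONTROL, and had no ratio in DMF25 replicate 4 over DMSO25 replicate 3. Its fitted difference was -0.22 in DMF25 and 0.27 in DMF100, and the step between them was 0.49 with a 95% interval just below 0 to 0.98. The step did not pass (unadjusted p 0.0509, adjusted p 0.997 in limma).

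The hox genes encode homeobox factors that set position along the body axis. Of 7 on the array under a symbol, 3 were tested, 1 of these had a mean DMF difference above 0 and none passed, with a median of -0.10 beside -0.01 over all probes. The gene hoxb1b (NM_131142), which acts in the anterior hindbrain, was -0.73 in DMF25 over CONTROL and 0.02 in DMF100 over CONTROL. The gene hoxb5a (NM_131101), with a role further back along the axis, was -0.72 in DMF25 over CONTROL and 0.02 in DMF100 over CONTROL. Both were thus lower in the DMF25 pool of the direct pair and close to 0 in that of DMF100. The fitted mean DMF difference was -0.10 ± 0.21 (SE) for hoxb1b and -0.16 ± 0.22 (SE) for hoxb5a. Without the pair of DMF25 and CONTROL, hoxb1b was 0.27 and hoxb5a was 0.28. Neither gene had a ratio in DMF25 replicate 4 over DMSO25 replicate 3. Without the pair with CONTROL, their DMF25 values thus rested on the pair of DMF100 replicate 2 and DMF25 replicate 3 alone.

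The gene hoxa13b (NM_131194) acts at the posterior end and in the fin buds. Its ratios in the direct pairs had the opposite signs, 0.74 in DMF25 over CONTROL and -0.45 in DMF100 over CONTROL. Among the remaining pairs with DMF it ran from -0.99 in DMF100 replicate 4 over DMSO25 replicate 4 to 0.62 in DMF100 replicate 3 over DMSO100 replicate 4. Over all pairs the mean DMF difference of hoxa13b was 0.07 ± 0.22 (SE), with a 95% interval of -0.40 to 0.54. It was -0.20 without the pair of DMF25 and CONTROL.

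**Figure D3:**
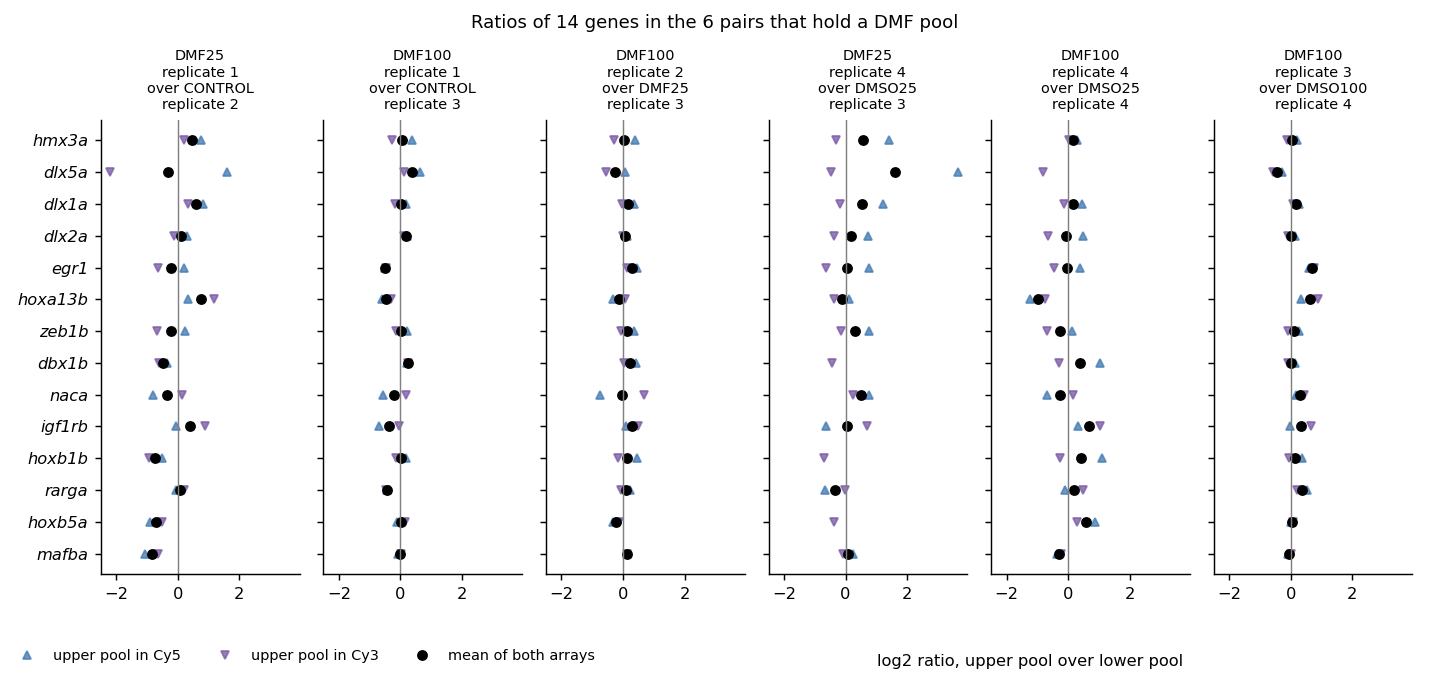
Log2 ratio of the 14 tested genes in the 6 pairs that hold a DMF pool, with the DMF pool on top (DMF100 on top in the pair of both DMF groups). Triangles are single arrays with the upper pool in Cy5 (pointing up) or in Cy3 (pointing down), black circles are the mean of both arrays, and a circle is absent where 1 array had no usable spot. In the first panel 5 genes lie past 0.5 in size, among them mafba at -0.85 and hoxa13b at 0.74, while in the second panel no gene does, with a range of -0.49 to 0.36.

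Of the list of immediate early and zinc finger factors used here, 2 members were on the array under a symbol and both were tested, while egr2b and wt1a, zinc finger genes outside that list, were not. Their median mean DMF difference was 0.08, beside -0.01 over all probes, and neither passed. The gene egr1 (NM_131248), an immediate early gene induced by many stimuli, was -0.22 in DMF25 over CONTROL and -0.49 in DMF100 over CONTROL, lower with DMF in both direct pairs. Its ratios against DMSO pools were 0.06 for DMF25 replicate 4, -0.03 for DMF100 replicate 4 and 0.68 for DMF100 replicate 3. Since egr1 was 0.72 in DMSO25 replicate 1 over CONTROL replicate 1 and 0.39 in DMSO100 replicate 3 over CONTROL replicate 4, the estimate that joins all pairs was above 0, at 0.11 ± 0.24 (SE). Within scan batches the egr1 estimate was 0.42 in the second and -0.64 in the last. The gene zeb1b (NM_131709), whose mammalian counterpart represses epithelial genes, was -0.23 in DMF25 and 0.03 in DMF100 over CONTROL, with a fitted mean DMF difference of 0.05 ± 0.18 (SE).

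Of the list of hormone and growth factor receptors used here, 3 members were on the array under a symbol and 2 were tested. Both had a mean DMF difference below 0 that did not pass, with a median of -0.12 beside -0.01 over all probes. The gene igf1rb (NM_152969) encodes a receptor for insulin-like growth factor. It was 0.41 in DMF25 over CONTROL and -0.37 in DMF100 over CONTROL, with a fitted mean DMF difference of -0.07 ± 0.23 (SE). The gene rarga (NM_131339) encodes a retinoic acid receptor. It was 0.07 in DMF25 and -0.45 in DMF100 over CONTROL, with a fitted mean DMF difference of -0.16 ± 0.24 (SE). Neither gene was on the same side of 0 in both direct pairs. When each pair was left out in turn, igf1rb ran from -0.39 to 0.11 and rarga from -0.37 to 0.02, so neither kept its direction.

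The gene naca (NM_173264) encodes a subunit of the complex that binds new protein chains as they leave the ribosome. It was -0.34 in DMF25 and -0.21 in DMF100 over CONTROL, lower with DMF in both direct pairs, and 0.49, -0.28 and 0.31 in the pairs with DMSO25 replicate 3, DMSO25 replicate 4 and DMSO100 replicate 4. Over all pairs naca had a mean DMF difference of -0.07 ± 0.21 (SE), with a 95% interval of -0.51 to 0.38. Within the second scan batch naca was 0.01 in DMF25 and -0.41 in DMF100, and within the last it was -0.17 and -0.21. Both values of the last batch rest on its 1 pair with CONTROL, and the second of them is the direct ratio given above. Over all pairs its mean was 0.14 without the pair of DMF25 and CONTROL. No gene of the xenobiotic metabolism list or of the oxidative stress list was on the array under a symbol, so these responses could not be described.

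The 2 pairs that set DMF directly against CONTROL ranked probes differently. Over the 3615 tested probes measured in both, the ratios of DMF25 replicate 1 over CONTROL replicate 2 and of DMF100 replicate 1 over CONTROL replicate 3 correlated at -0.34 (Pearson) and -0.33 (Spearman). The points are probes, which are not independent replicates, and the pairs share the array platform and the normalization but no pool. The ratio had the same sign in both pairs for 1466 probes (40.6%). In the DMF25 pair 18 probes were over 1 and 52 were under -1. In the DMF100 pair 4 were over 1 and 11 were under -1. No probe was past 1 in the same direction in both pairs, and 2 were past 1 in opposite directions.

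**Figure D4:**
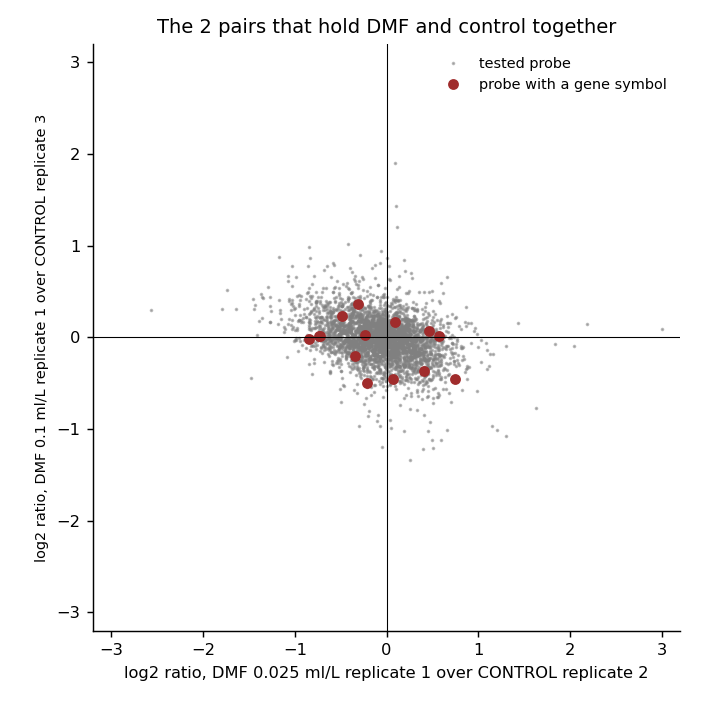
Log2 ratio of DMF 0.025 ml/L replicate 1 over CONTROL replicate 2 (x axis) against that of DMF 0.1 ml/L replicate 1 over CONTROL replicate 3 (y axis) for the 3615 tested probes measured in both; red circles are probes with a gene symbol. The cloud is wider along the x axis (SD 0.397) than along the y axis (0.245) and slopes downward, with a Pearson correlation of -0.34 and no probe past 1 in the same direction in both.

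Routes from DMF to CONTROL through other groups were set beside the direct ratios. For DMF25, the direct ratio correlated across probes at 0.27 with the route through DMSO25 and at -0.11 with the route through DMF100. For DMF100, the direct ratio correlated at 0.13 with the route through DMSO25, at -0.23 with the route through DMSO100 and at -0.54 with the route through DMF25. Each route shared no pool with the direct ratio set beside it. The correlations are not separate from each other. Both that link DMF25 and DMF100 hold the same direct pairs as the comparison of direct pairs above. Both routes through DMSO25 share the pair of DMSO25 and CONTROL. The correlations ranged from weakly alike to opposite.

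Pairs were scanned in batches, read from the scan names. The second batch held 6 of the 9 pairs, among them DMF25 over CONTROL, and the last batch held 3, among them DMF100 over CONTROL. The mean DMF difference estimated within the second batch and within the last batch shared no pool. In the last batch the DMF100 value was the direct ratio over CONTROL. The DMF25 value there was that ratio minus the ratio of DMF100 over DMF25. Over 2685 probes the 2 estimates correlated at 0.006 and had the same sign for 1367 probes (50.9%). For DMF25 alone the correlation was 0.090 and for DMF100 alone it was -0.003. Because the direct pair of each concentration lay in a different batch, concentration and batch cannot be told apart in those pairs.

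The pairs also differed in spread and in signal. The SD of the log2 ratio over tested probes was 0.245 in DMF100 over CONTROL, the smallest of the 9 pairs, and 0.397 in DMF25 over CONTROL. It was 0.307 in DMF100 replicate 2 over DMF25 replicate 3, which holds no group other than DMF. The median probe amplitude was 12.7 times that of empty spots in Cy3 and 28.9 times in Cy5 for DMF100 replicate 1, and 3.88 times and 6.46 times for its partner CONTROL replicate 3. It was 1.66 times in Cy3 and 1.88 times in Cy5 for DMF25 replicate 1, and 6.57 times and 3.62 times for its partner CONTROL replicate 2. The DMF25 pool of the direct pair thus lay close to the empty spots in both dyes. So did 1 pool of each other pair in that scan batch, CONTROL replicate 1 among them at 1.57 times and 1.24 times. On every array of that batch 1 dye was the lower one, Cy3 on 1 array of each pair and Cy5 on the other. Both times it fell on the same pool, so low signal of a pool and of a dye on an array cannot be told apart. The part of this low signal in the wider spread of DMF25 was not tested. After removal of the dye effect common to all pairs, both arrays of a pair correlated across probes at 0.42 in DMF25 over CONTROL and at 0.24 in DMF100 over CONTROL, and at -0.15 and 0.05 before it. In DMF25 replicate 4 over DMSO25 replicate 3, which enters the dlx and hmx3a values, the correlation was -0.05 after removal and -0.27 before it.

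**Figure D5:**
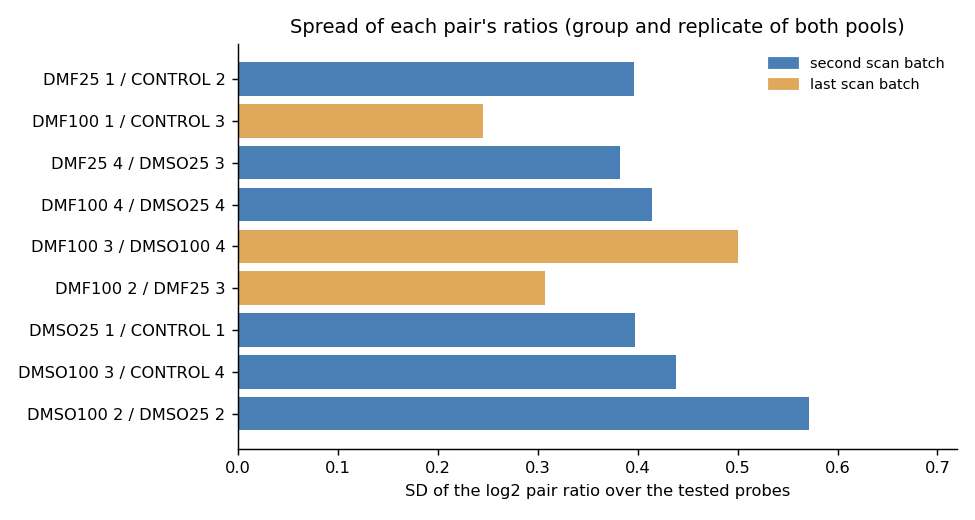
Bars give the SD over tested probes of the log2 ratio in each of the 9 pairs, named by group and replicate number of both pools, with blue for the second and orange for the last scan batch. The pair of DMF100 replicate 1 and CONTROL replicate 3 has the smallest SD (0.245) and the pair of DMSO100 replicate 2 and DMSO25 replicate 2 the largest (0.571).

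Most probes have no gene symbol because their identifiers are GenBank records that no table used here pairs with genes. By the smallest p in the mean of both DMF groups, the leading probes above 0 were BI864873 and BM157063 and the leading probes below 0 were AI722369 and BM182563. None of the 4 passed (adjusted p 0.993 in limma). The probe BI864873 was 0.98 in DMF25 over CONTROL and 0.04 in DMF100 over CONTROL, and 1.18, 0.65 and 0.60 in the pairs of DMF25 replicate 4, DMF100 replicate 4 and DMF100 replicate 3 with DMSO pools. The DMF pool was the higher one in all 5, and the fitted difference was 0.62 ± 0.18 (SE), with an unadjusted p of 0.00355 in limma. Because these 4 probes were picked by their p from the same ratios, a shared sign among those ratios is no separate evidence. The probe BM157063 had 0.96 in DMF25 and 0.07 in DMF100 over CONTROL and 1.07, 0.58 and 0.02 against those DMSO pools, and a fitted difference of 0.61 ± 0.20 (SE).

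The probe AI722369 had the lowest fitted difference, -1.50 ± 0.34 (SE), with a 95% interval of -2.23 to -0.76 and an unadjusted p of 0.000659. It was -2.57 in DMF25 over CONTROL and 0.30 in DMF100 over CONTROL, on opposite sides of 0. In the pairs with DMSO pools it was -0.81 for DMF25 replicate 4, -0.67 for DMF100 replicate 4 and -1.27 for DMF100 replicate 3. It was also -1.97 in DMSO25 replicate 1 over CONTROL replicate 1, in which no DMF pool took part. Without the pair of DMF100 replicate 1 and CONTROL replicate 3 it was -2.15 and passed (adjusted p 0.0126, limma).

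The probe BM182563 was -1.20 in DMF100 over CONTROL and -0.05 in DMF25 over CONTROL. In the pairs with DMSO pools it was -0.93 for DMF25 replicate 4, -1.27 for DMF100 replicate 4 and -0.39 for DMF100 replicate 3. The DMF pool was thus the lower one in 5 of 5 pairs, but BM182563 was picked by its p from these same ratios. The ratios of DMSO over CONTROL were -0.23 and -0.83. Over all pairs BM182563 was -0.86 ± 0.22 (SE), with an unadjusted p of 0.00141. Its fitted differences were -0.72 in DMF25 and -1.0 in DMF100.

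A probe that was printed on 172 spots of every array showed how well a ratio was measured within an array. Between 156 and 165 of its spots were usable on both arrays of a pair, and the SD between spots of 1 array was 0.07 to 0.31. Its ratio was 0.09 in DMF25 over CONTROL, 0.27 in DMF100 over CONTROL and -1.12 in DMF100 replicate 3 over DMSO100 replicate 4. Its ratio in the remaining pairs ran from -0.25 to 1.02. The SD describes 1 spot, while each ratio is a mean over at least 156 spots. It therefore does not tell whether the 2 direct pairs differ by more than the error of measurement. The pair with DMSO100 replicate 4 lay further from both than they lay from each other. Its fitted mean DMF difference was 0.05 ± 0.22 (SE), with a 95% interval of -0.42 to 0.52.

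The remaining 33 genes with a symbol had ratios in fewer than 8 pairs and were not tested. Of these, 10 had no ratio in any pair, among them cyp26a1, which breaks down retinoic acid, cyp11a1.1, which starts steroid synthesis, and the germ cell gene ddx4. In DMF100 over CONTROL 22 of the 33 genes had a ratio, of which 14 were above 0 and 8 below, from -0.42 to 0.65 with a median of 0.09. The highest there was phc2a, a Polycomb group gene, and the lowest was csnk1a1, a casein kinase gene. In DMF25 over CONTROL only 8 had a ratio, from -0.66 in the hindbrain gene egr2b to 0.18 in igf1ra, the second receptor gene for insulin-like growth factor, with 3 above 0 and 5 below.

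Of the untested genes, 8 had a ratio in both direct pairs, and all 8 lay on opposite sides of 0 in them. Of the tested genes 6 of 14 had the same sign, as had 40.6% of tested probes. Several of the 8 lay at about 0 in DMF100 over CONTROL, among them gdf6b at 0.01 and nkx2.1 at -0.01. The gene egr2b was -0.66 in DMF25 and 0.06 in DMF100 over CONTROL. The gene hoxa2b, which patterns the second pharyngeal arch, was -0.41 and 0.18 in the same pairs. The gene hoxb6a was -0.35 in DMF25 over CONTROL and 0.11 in DMF100 over CONTROL. The kidney gene wt1a was -0.23 in DMF25 over CONTROL and 0.10 in DMF100 over CONTROL. In the other direction, tlx2 was 0.08 in DMF25 over CONTROL and -0.17 in DMF100 over CONTROL, and igf1ra and nkx2.1 were also above 0 in DMF25 alone.

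Of the metabolic genes, rbp4, which carries retinol in blood, was -0.22 in DMF100 over CONTROL, -0.45 in DMF100 replicate 2 over DMF25 replicate 3 and -0.83 in DMF100 replicate 4 over DMSO25 replicate 4. It was 0.02 in DMF100 replicate 3 over DMSO100 replicate 4, so 3 of its 4 measured DMF100 ratios lay below 0. The cytochrome P450 gene cyp2ad2 was -0.04 in DMF100 over CONTROL and 0.12 in DMF100 replicate 2 over DMF25 replicate 3. With probes that had a ratio in at least 6 pairs, rbp4 had a fitted mean DMF difference of -0.13 ± 0.38 (SE) and gdf6b, a bone morphogenetic protein gene, of -0.33 ± 0.22 (SE), and neither passed.

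Presence and absence were read from the scanner software's estimate of the probability that a spot holds signal. A spot was taken as present above 0.9 and absent below 0.1, on both arrays of a pair. In DMF25 over CONTROL 1683 of 16578 probe spots were present in both pools, 0 in the DMF25 pool alone and 29 in the CONTROL pool alone. In DMF100 over CONTROL 9277 were present in both, 0 in the DMF100 pool alone and 0 in the CONTROL pool alone. The 29 spots lie in the pair in which the DMF25 pool was close to the empty spots. So was 1 pool of every other pair in the second scan batch. The part of this low signal in the 29 spots was not tested.

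The solvents were set against each other in the same fit, as the mean of both DMF groups minus the mean of both DMSO groups. Here 1 of 3652 probes (0.0274%) passed in limma, and it was lower with DMF, at -1.61 ± 0.225 (SE) on the log2 scale. Its call was lost without each of 3 pairs that measured it, those of DMF25 replicate 1, DMF100 replicate 3 and DMF100 replicate 4, and under several other settings. It was also lost without the pair of DMF25 replicate 4, in which the probe had no ratio, at the same log2 value. Without the pair of DMF100 replicate 1 and CONTROL replicate 3, 35 probes passed, of which 30 were lower with DMF, and without that of DMSO100 replicate 3 and CONTROL replicate 4, 5 passed. At an unadjusted p under 0.05, 183 probes (5.01%) were higher with DMF than with DMSO and 176 (4.82%) were lower. Together these were 359 probes (9.83%), against 182.6 that the threshold would give with no difference. None of the 14 genes with a symbol passed in this contrast. The value of dlx1a was 0.31, with a 95% interval of -0.02 to 0.64 (adjusted p 0.535, limma). The value of hmx3a was 0.12, with a 95% interval of -0.23 to 0.47 (adjusted p 0.836, limma).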

How the data were processed

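Total RNA from pools of whole embryos was amplified, then labelled with 1 of 2 dyes (Cy3 or Cy5), per the labels' protocols. The intensity of each spot and dye in the deposited per-array files is an amplitude estimated by BlueFuse for Microarrays, per the file headers. The headers name version 3.3 on 2 arrays and 3.6 on 18. The authors' deposited value table gives log2 ratios whose normalization is not given in the sources used here. Spearman correlations of its columns with the raw Cy5 over Cy3 ratio of the matching array were 0.379 to 0.839, its medians lay between -0.04 and 0.07, and it served as an alternative.

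Work was done with limma 3.58.1 in R 4.3.3, helped by statmod 1.5.0 and jsonlite 2.0.0. Log2 ratios of Cy5 over Cy3 were normalized per array by loess (span 0.3, 4 iterations). No background was subtracted. Of 17328 spots, 750 control spots and, on each array, spots of the lowest confidence grade (below 0.1) were left out. The spots of the probe printed 172 times were averaged, which gave 16407 probes. Other spots were kept singly, so an identifier printed on several spots counts as several probes. Dye-swapped arrays were averaged to 1 ratio per pair, missing where either array lacked a usable spot. Probes with a ratio in at least 8 of 9 pairs were fitted with lmFit and eBayes. For each of the 4 exposed groups 1 coefficient gave its difference from CONTROL, with 5 residual and 8.67 prior degrees of freedom. In the mean contrast the pair of DMF25 and CONTROL had a weight of 0.333 and that of DMF100 and CONTROL 0.3, and the pairs without DMF entered too. Calls are at a Benjamini-Hochberg adjusted p under 0.05. Arrays give no counts, so their number limits the precision.

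Symbols came from RefSeq accessions, carried by 61 of 16578 probe spots, of which 47 matched the reference gene table. Named were every tested gene with a symbol, and the 2 higher and 2 lower unnamed probes of smallest p. Members and gene lists were chosen with earlier results of these data known. The fit was tested on simulated data. Alternatives were spot grade, normalization, background, filters, the authors' table, 10 pairs, single arrays, 1 scan batch, a replicate block, 1 coefficient for both DMF groups and leaving out each pair. Same-numbered pools share only a number, as the labels do not tie it to a day or batch, and each pool was in 1 pair, so a check of shared deviations could not be made. The pools are separate plates, and each p-value sets a difference against an error taken from the misfit of the pair ratios to the fitted groups. In eBayes this error was drawn towards a value common to all probes, with 8.67 prior against 5 residual degrees of freedom. The misfit holds the spread between plates together with labelling and array error, which cannot be told apart here.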

Additional observations from a re-analysis of the deposited data

Results flagged for a closer look

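In the contrast of both DMF groups minus both DMSO groups, 1 probe that no table used here pairs with a gene differed past the threshold, at -1.61 ± 0.225 (SE) on the log2 scale (adjusted p 0.0318, limma). It was singled out because the difference between the solvents was itself tested and passed. The pools with DMF were lower in both pairs with DMSO that measured it, at -2.15 in DMF100 replicate 3 over DMSO100 replicate 4 and -1.09 in DMF100 replicate 4 over DMSO25 replicate 4, and it had no ratio in DMF25 replicate 4 over DMSO25 replicate 3. Over CONTROL it was -1.27 in DMF25 replicate 1 and 0.35 in DMF100 replicate 1, while DMSO25 replicate 1 and DMSO100 replicate 3 were 0.28 and 1.1. Its mean DMF difference from CONTROL was -0.69 and did not pass. Its value stayed below 0, from -1.79 to -1.07, in each alternative that could test it. The call was lost without each of the pairs of DMF25 replicate 1, DMF100 replicate 3 and DMF100 replicate 4. It was also lost, at the same value, without the pair of DMF25 replicate 4, in which it had no ratio (adjusted p 0.349, limma).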

How the results depend on the processing

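The mean of both DMF groups minus CONTROL had 0 calls under each alternative except 1 without a pair: leaving out each pair in turn gave 0 to 1 calls, the 1 being AI722369 without DMF100 replicate 1 and CONTROL replicate 3. DMF25 minus CONTROL had 1 call (higher) with low-confidence spots kept, 2 (lower) with single arrays and a dye coefficient, and 0 to 1 when each pair was left out. DMF100 minus CONTROL and DMF100 minus DMF25 had 0 calls throughout. With the replicate number as further coefficients (the replicate block, 3253 probes tested, 2 residual degrees of freedom) every contrast had 0 calls. The probe called between DMF and DMSO could not be tested there, as it had no ratio in the pair of DMF25 replicate 4. The contrast of DMF with DMSO also had 0 calls with low-confidence spots kept, print-tip loess, median centring, the authors' value table and all 10 pairs. It had 0 calls with a ratio in all 9 pairs and in the second scan batch alone. In those settings the called probe could not be tested either, so their 0 calls do not bear on it. The contrast had 2 calls with a ratio in at least 6 pairs and 8 with single arrays. When each pair was left out it had 0 to 35, with 35 without DMF100 replicate 1 and CONTROL replicate 3. The cause was not tested. None of the 14 genes passed in the mean DMF difference under any alternative. There hmx3a, dlx1a and dlx2a stayed above 0 in 21 of 21 alternatives, at 0.27 to 0.65, 0.15 to 0.37 and 0.09 to 0.52, and dlx5a in 18 of 19, at -0.03 to 2.33. The other genes kept the sign of their value in fewer than all: dbx1b 13 of 18, hoxb1b 14 of 18, hoxb5a 17 of 18, hoxa13b and naca 16 of 21, igf1rb and zeb1b 17 of 21, egr1 and rarga 18 of 21, and mafba 19 of 21. The last scan batch alone was not among the alternatives. In it the mean DMF difference was -0.06 for dlx1a, 0.13 for dlx2a and 0.04 for hmx3a. The alternatives share most of their pairs, and no such count of signs over all tested probes is given. Low signal over empty spots in the second batch limits what could be measured. The alternatives of the contrast of DMF with DMSO and the scan batches were chosen after seeing the data.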
